A study of Homo sapiens with 9 samples.

Results

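Proteoglycans, the hyaluronan system and the extracellular sulfatases were followed through 8 genes: the small leucine-rich proteoglycans DCN (decorin), LUM (lumican) and BGN (biglycan), the large proteoglycan VCAN (versican), the hyaluronan synthase HAS2, the hyaluronan receptor CD44, and the sulfatases SULF1 and SULF2. The genes were taken by symbol from a table of 13745 genes, and 8 of 8 were in it. They were chosen by their normalised read counts in all 9 libraries, so their levels and differences are given as a description, without p-values.

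RNA was measured by polyA RNA-seq in BJ cells, human fibroblasts immortalised with hTERT, in 9 libraries that form 5 groups. The control (1 library) carried the non-targeting shRNA 500 and had no RAS activation. The senescent group (2 libraries) had RASG12V activated with the non-targeting shRNA 500 (replicate 1) or 507 (replicate 2). RASG12V is an oncogenic RAS that drives these cells into senescence, a lasting arrest of proliferation. In 4 libraries RASG12V was activated in cells with lncRNA-OIS1 knocked down, each with its own hairpin: 32-2, 32-3, 32-8 and 32-9 for replicates 1 to 4. p53 and BRD7 were knocked down before RASG12V activation in 1 library each, and their hairpins are not given in the labels. Every library is labelled with 4-OHT for 14 days, the control included, whereas the design text has it as untreated. The labels do not say whether libraries of a group came from separate cultures, so every spread below is between these libraries and may be technical. Libraries called replicates also differ in their hairpin or non-targeting shRNA, so each spread includes those differences.

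Proteoglycans are proteins that carry long sulfated sugar chains. In the matrix around fibroblasts, decorin, lumican and biglycan bind collagen fibrils and shape their assembly, while versican binds hyaluronan and forms a loose, hydrated matrix. Hyaluronan is an unsulfated chain made at the plasma membrane by hyaluronan synthases and bound at the cell surface by CD44. The extracellular sulfatases remove 6-O-sulfate groups from heparan sulfate and so alter how growth factors bind to it.

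Each value is a read count per gene that the authors normalised. In the deposited table all 9 libraries hold the same set of values, with a floor of 20 at which 10% of genes sit, so a value reflects a gene's rank in its library, the depth behind a value is not known and counting error cannot be estimated. Folds of a gene at 20 are lower bounds. BRD7 stood at 94.6 in its knockdown library against 536.6 or more elsewhere. No row was matched to lncRNA-OIS1, so that knockdown was not checked. Of 6 fibroblast markers 6 were in the table, with a summed value of 326301 in the control and 88312.1 to 152167 in the 8 RAS libraries. Collagens carried much of that sum: COL1A1 had 110360.7 in the control and 8078.4 to 18745.7 in the RAS libraries, while VIM (vimentin) had 39745.4 and 48419.6 to 110360.7. Of the markers looked for, the table held 2 of 5 epithelial (sum 760.7 to 3666.7 over the 9 libraries), 2 of 4 leukocyte (45.1 to 196.5; PTPRC at 156.6 in the control and 20 elsewhere, CD14 at 25.1 to 143.9), 1 of 4 endothelial (22.2 to 266.9) and 0 of 3 melanocyte markers. Their part in the results below was not tested. In bulk RNA, fewer cells of a type and less RNA per cell cannot be told apart.

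The set of promoter windows used here (RefSeq, GRCh38.p14) held 4 of the 8 genes and had no entry for DCN, LUM, HAS2 and SULF1. The 250 bases before the start are printed for 3 genes with different patterns: BGN, low in the RAS libraries, CD44, high in them, and VCAN, high in a single knockdown library. They lie on the plus strand at chrX:153494730-153494979, chr11:35138921-35139170 and chr5:83471494-83471743, and capitals mark matches to the GC box GGGCGG on either strand.
BGN: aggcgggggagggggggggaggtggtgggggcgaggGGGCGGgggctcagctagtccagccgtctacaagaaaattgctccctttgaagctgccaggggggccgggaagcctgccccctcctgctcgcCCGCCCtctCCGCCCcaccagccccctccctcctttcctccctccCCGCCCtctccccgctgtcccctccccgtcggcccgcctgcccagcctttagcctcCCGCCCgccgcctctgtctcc
CD44: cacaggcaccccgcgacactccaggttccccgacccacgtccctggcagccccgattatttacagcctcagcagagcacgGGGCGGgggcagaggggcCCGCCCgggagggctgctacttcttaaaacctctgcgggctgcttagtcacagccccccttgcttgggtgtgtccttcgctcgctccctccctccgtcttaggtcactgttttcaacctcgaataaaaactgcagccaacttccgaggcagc
VCAN: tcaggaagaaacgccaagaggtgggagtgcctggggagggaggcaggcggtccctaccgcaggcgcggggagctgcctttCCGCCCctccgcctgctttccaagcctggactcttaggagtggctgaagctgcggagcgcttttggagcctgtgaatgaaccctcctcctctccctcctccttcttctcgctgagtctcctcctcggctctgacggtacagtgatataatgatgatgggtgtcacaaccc
BGN held 5 such matches, CD44 2 and VCAN 1, and 42.5% of 34943 promoter windows of this length held at least 1. AP-1 (TGANTCA, in 6.59% of windows), the ETS core CCGGAAG (8.48%), the TATA box TATAAA (10.8%) and CCAAT (32.0%) had 0 matches in all 3 on either strand. These are letter matches only. The authors' processing notes name hg19, so no other coordinates are given.

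Decorin showed the widest difference of the collagen-binding proteoglycans. DCN (ENSG00000011465) had 11040.1 in the control, against 71.7 and 68.2 in senescent replicates 1 and 2. With lncRNA-OIS1 knocked down it stood at 143.8, 156.9, 263.8 and 281.3 in replicates 1 to 4, with p53 knocked down at 136.1 and with BRD7 knocked down at 180.2. The 8 RAS libraries were thus far below the control, at 0.618% to 2.55% of its value, and all 6 knockdown libraries lay above both senescent libraries. The log2 difference, senescent minus control, was −7.30 (SE 0.47). Against the senescent libraries it was 1.53 (SE 0.33) for lncRNA-OIS1 knockdown, 0.96 (SE 0.47) for p53 knockdown and 1.37 (SE 0.47) for BRD7 knockdown.

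Lumican, which keeps fibrils thin and evenly spaced, reached 20683 in the control, against 395.9 and 503 with RASG12V and no knockdown. LUM (ENSG00000139329) had 956, 941.8, 1226.2 and 470 with the 4 lncRNA-OIS1 hairpins, 422.2 with p53 knockdown and 1056.8 with BRD7 knockdown. All 8 RAS libraries were at 1.91% to 5.93% of the control. lncRNA-OIS1 replicates 1 to 3 and the BRD7 knockdown library lay above both senescent libraries, while replicate 4 and the p53 knockdown library lay between them. The log2 difference was −5.53 (SE 0.55) for senescent minus control. Against the senescent libraries it was 0.93 (SE 0.39) for lncRNA-OIS1 knockdown, 1.24 (SE 0.55) for BRD7 knockdown and −0.08 (SE 0.55) for p53 knockdown. LUM and DCN are next to each other on chromosome 12 in the RefSeq gene order. Their log2 values had a Pearson r of 0.943 over the 9 libraries, a figure that rests mostly on the single control library.

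Biglycan, a close relative of decorin that also signals through innate immune receptors, differed least of the 3. BGN (ENSG00000182492) had 3627.6 in the control, 415.1 and 345.4 in senescent replicates 1 and 2, and 852.4, 312.7, 215.2 and 231.3 with lncRNA-OIS1 hairpins 32-2, 32-3, 32-8 and 32-9. It had 314.7 with p53 knockdown and 412 with BRD7 knockdown. The RAS libraries were at 5.93% to 23.5% of the control. Among the knockdown libraries only lncRNA-OIS1 replicate 1 exceeded both senescent libraries, 4 lay below both, and the BRD7 library lay between them. The log2 difference was −3.26 (SE 0.83) for senescent minus control. It was −0.16 (SE 0.59) for lncRNA-OIS1 knockdown minus senescent, a sign that turned without replicate 3 or 4 (0.06 and 0.03). It was −0.27 (SE 0.83) for p53 knockdown and 0.12 (SE 0.83) for BRD7 knockdown.

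**Figure D1:**
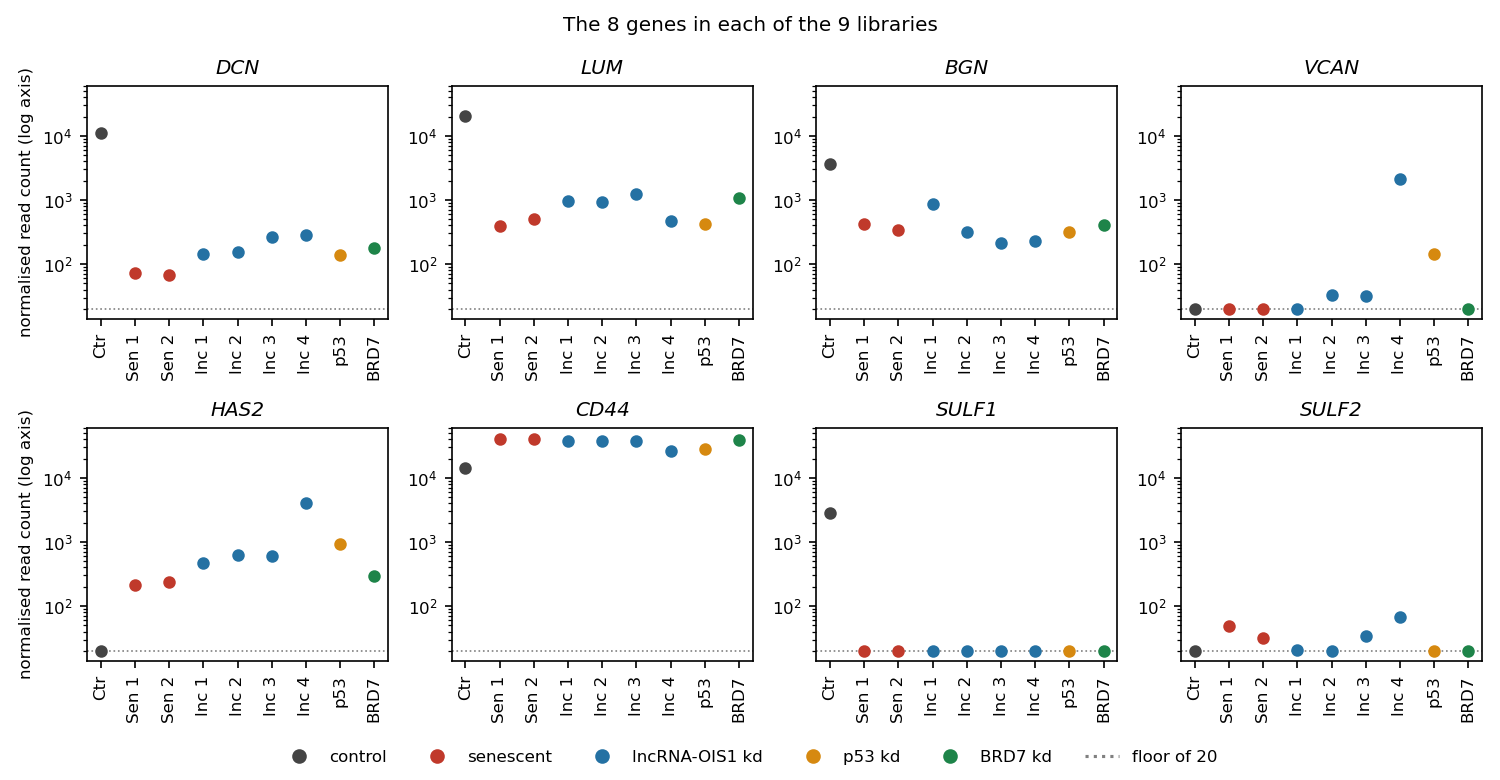
Normalised read count (log axis) of each of the 8 genes in the 9 libraries (Ctr, control; Sen, senescent; lnc 1 to 4, lncRNA-OIS1 knockdown replicates; p53 and BRD7, those knockdowns), 1 point per library, with the floor of 20 dotted. DCN, LUM, BGN and SULF1 are highest in the control, HAS2 and CD44 are lowest there, and VCAN stands out in lncRNA-OIS1 replicate 4 at 2135.

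Versican was at or near the floor in all but 2 libraries. VCAN (ENSG00000038427) was at 20 in the control, in both senescent libraries, in lncRNA-OIS1 replicate 1 and in the BRD7 knockdown library. It stood at 33.1 and 32.1 in lncRNA-OIS1 replicates 2 and 3, at 142.3 with p53 knockdown and at 2135 in lncRNA-OIS1 replicate 4. Replicate 4 was therefore at least 107-fold above the senescent libraries and the p53 knockdown library at least 7.12-fold. The mean log2 difference of 2.04 (SE 1.99) between lncRNA-OIS1 knockdown and senescent libraries was 0.47 without replicate 4. Versican's link protein HAPLN1, which ties it to hyaluronan, stood between 20 and 34.1 in the 9 libraries.

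The hyaluronan synthase gene was found at the floor in the control and above it in every RAS library. HAS2 (ENSG00000170961) had 20 in the control, with 211.3 and 235.4 in senescent replicates 1 and 2. It had 463.9, 616.7, 607.7 and 4054.7 with the 4 lncRNA-OIS1 hairpins, 924.8 with p53 knockdown and 296.6 with BRD7 knockdown. The senescent libraries were at least 10.6-fold and 11.8-fold above the control, and all 6 knockdown libraries lay above both senescent libraries. Replicate 4 of lncRNA-OIS1 knockdown was 18.2-fold above the senescent mean, against 2.08-fold to 2.76-fold in replicates 1 to 3. The log2 difference for lncRNA-OIS1 knockdown minus senescent was 2.04 (SE 0.92), and 1.32 without replicate 4. It was 2.05 (SE 1.29) for p53 knockdown and 0.41 (SE 1.29) for BRD7 knockdown. HAS2-AS1, the antisense gene beside HAS2, stood at 26.6 in replicate 4, at 20.9 with p53 knockdown and at 20 in the other 7 libraries. No source used here says whether counting took account of strand, so reads of overlapping antisense genes could be shared.

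CD44, the main hyaluronan receptor of fibroblasts, was abundant in all libraries and higher wherever RAS was active. CD44 (ENSG00000026508) stood at 14361.1 in the control and at 39745.4 in both senescent libraries, an equality that the shared set of values allows when a gene has the same rank. It had 37176.7, 37176.7, 37673 and 26190.7 with the 4 lncRNA-OIS1 hairpins, 28437.1 with p53 knockdown and 38741.9 with BRD7 knockdown. All 8 RAS libraries were at 182% to 277% of the control, and all 6 knockdown libraries lay below both senescent libraries. The difference was slight in lncRNA-OIS1 replicates 1 to 3 and with BRD7 knockdown. The log2 difference was 1.47 (SE 0.27) for senescent minus control, −0.22 (SE 0.19) for lncRNA-OIS1 knockdown, −0.48 (SE 0.27) for p53 knockdown and −0.04 (SE 0.27) for BRD7 knockdown, each minus senescent. Without replicate 4 the lncRNA-OIS1 value was −0.09.

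SULF1 was present in the control alone. SULF1 (ENSG00000137573) stood at 2869.2 in the control and at 20 in the other 8 libraries, at least 143-fold lower. No knockdown library held a value above the floor, so any difference among RAS libraries would lie below what the table shows. Its paralog SULF2 (ENSG00000196562) was low throughout: 20 in the control, 48.7 and 31.4 in senescent replicates 1 and 2, and 21, 20, 34.7 and 66.6 with lncRNA-OIS1 hairpins. It was at 20 with p53 and with BRD7 knockdown. The senescent values were at most 2.44-fold above the floor, and the log2 difference between lncRNA-OIS1 knockdown and senescent libraries was −0.32 (SE 0.55). With p53 and with BRD7 knockdown it was −0.97 (SE 0.77) each.

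Read by the rule used for all genes (limma, Benjamini-Hochberg adjusted p under 0.05 over 12481 genes), 4 of the 8 genes were called between senescent and control libraries. CD44 was called higher, and DCN, LUM and SULF1 lower. The same rule called 15.0% of all genes tested. Because the 8 were picked with this contrast in view, nothing is read from these calls, their share or how they held with other settings. Their median log2 difference was −1.63, against 0.03 over all genes tested. All 8 RAS libraries lay below the control for 4 of the genes and above it for 2 (HAS2 and CD44), which 23.1% and 25.3% of all genes did. The LUM and CD44 calls were lost without either senescent replicate, and that of CD44 also without lncRNA-OIS1 replicate 2. With only the groups compared 6 of the 8 were called, among 4998 of all genes, with BGN lower and HAS2 higher in addition. BGN was also called without lncRNA-OIS1 replicate 1, with a pseudocount of 50, with a mean of at least 80 and with median-of-ratios scaling, and HAS2 without lncRNA-OIS1 replicate 4. SULF1 passed the filter of a highest value of at least 40 through the control alone, so it could be called only as lower. It had no spread among the replicated libraries, and its SE rests on the variance that limma assigns.

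Against the senescent libraries, 0 of the 8 genes were called with lncRNA-OIS1, p53 or BRD7 knockdown, where limma called 0%, 3.84% and 0.00801% of all genes. The 8 were chosen by these same values, so nothing is read from their counts here or with other settings. At an unadjusted p under 0.05 the counts were 1, 0 and 1 of 8, where 1311, 1654 and 850 of the 12481 genes passed as higher and 1494, 1632 and 885 as lower. Median log2 differences of the 8 genes were 0.46 for lncRNA-OIS1 knockdown, −0.04 for p53 knockdown and 0.06 for BRD7 knockdown, and those of all genes tested were −0.02, 0 and −0.02. All 6 knockdown libraries were above both senescent libraries for DCN and HAS2 (14.7% of all genes) and below both for CD44 (18.6%). The 3 comparisons share the same senescent libraries.

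**Figure D2:**
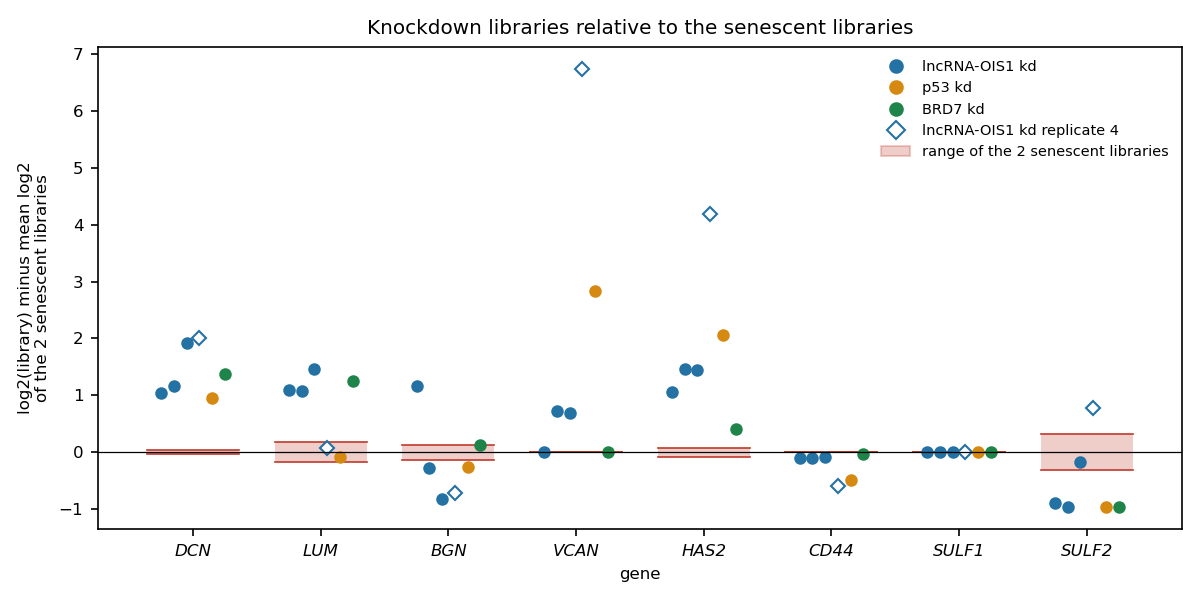
Difference in log2 between each knockdown library and the mean log2 of the 2 senescent libraries, by gene, with the range of the 2 senescent libraries shaded and lncRNA-OIS1 replicate 4 as an open diamond. All 6 points lie above the shaded range for DCN and HAS2 and below it for CD44, and replicate 4 is far above the other libraries for VCAN and HAS2.

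The rest of the pathway was read from lists of related genes, which held 131 symbols other than the 8; 94 were in the table and 90 passed the filter of a highest value of at least 40. Between senescent and control libraries 7 of the 90 rose and 18 fell, against 7.95% and 7.10% of all genes tested. Their median log2 change was −0.18. The share that rose was thus close to that of all genes. Differences between the lists were not tested. With median-of-ratios scaling the split was 6 and 19 for these genes, and 798 higher and 1046 lower against 992 and 886 over all genes tested. Only 5 of the 90 were called when either senescent replicate was left out, and 31 without lncRNA-OIS1 replicate 4. The control library has no replicate, and limma assumed that it varies like the replicated groups. SRGN, GPC4, GPC6 and ADAMTS9 are among the 90 but were at 20 in the control and both senescent libraries. They could not be called in this comparison. FMOD, HAPLN3, PODNL1 and ADAMTS15, among the 18 falls, passed the filter through the control alone, so they could be called only as falls.

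Among core proteins all calls were falls. Of 4 other small leucine-rich proteoglycans tested, 3 fell and 0 rose. FMOD (fibromodulin, a collagen-binding relative of lumican) stood at 91.1 in the control and at 20 in the other 8 libraries, at least 4.56-fold lower. It passed the filter through the control alone and had no spread among the replicated libraries. Its call (limma adjusted p = 0.00211) therefore rests on the variance that limma assigns. PRELP fell from 208.6 to 48.5 ± 16.3 (SD, n = 2; log2 −2.15, SE 0.52, adjusted p = 0.0488), a call kept in 5 of 12 alternatives. PODNL1, the remaining fall, had a log2 change of −2.01. It stood at 123.7 in the control and at most at 35.4 elsewhere, so it too passed the filter through the control alone. Among secreted proteoglycans of the basement membrane and matrix 2 of 6 fell: HSPG2, or perlecan, from 7674.7 to 1076 ± 20.6 (log2 −2.83, SE 0.44, adjusted p = 0.0177), and SPOCK1, or testican, from 1519.4 to 163 ± 35.4 (log2 −3.24, SE 0.31, adjusted p = 0.00523). At the cell surface 3 of 9 fell, all syndecans. The 9 include GPC4 and GPC6, and the 6 secreted ones include SRGN. These were at the floor in the control and both senescent libraries and could not be called. SDC2 went from 3157.4 to 503 ± 28.2 (log2 −2.65, adjusted p = 0.0155), SDC4 from 4690.1 to 1656.5 ± 95.5 (adjusted p = 0.0167), and SDC3 fell by 1.28 on the log2 scale. The link protein gene HAPLN3 fell from 105.1 to 22.6 ± 3.61 (adjusted p = 0.00421).

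Leaving out the 8 genes, 2 genes of hyaluronan synthesis, 1 of its receptors and 4 of its degradation were tested between senescent and control libraries. Of these 1 was called, where 15.0% of all genes tested were. KIAA1199 (CEMIP), needed for hyaluronan breakdown by fibroblasts, fell from 22372.6 to 1856.5 ± 49.4 (log2 −3.59, SE 0.79, limma adjusted p = 0.0391). It was the only one of 4 genes of hyaluronan degradation that was called, and the call was lost without either senescent replicate, without any of lncRNA-OIS1 replicates 1 to 3 and without the filter. With lncRNA-OIS1 knockdown KIAA1199 had 6335.7, 4252.6, 6610 and 1777, above both senescent libraries in replicates 1 to 3 and below both in replicate 4 (adjusted p = 0.28). UGDH, which makes the sugar precursor UDP-glucuronate, and HMMR, a hyaluronan-binding protein of the mitotic spindle, were not called; both are named after their values were seen. UGDH had 1586.8 in the control against a senescent mean of 1058.5 ± 19.1 (n = 2; adjusted p = 0.299). HMMR had 575.9 against 337 ± 92.6 (n = 2; adjusted p = 0.272).

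**Figure D3:**
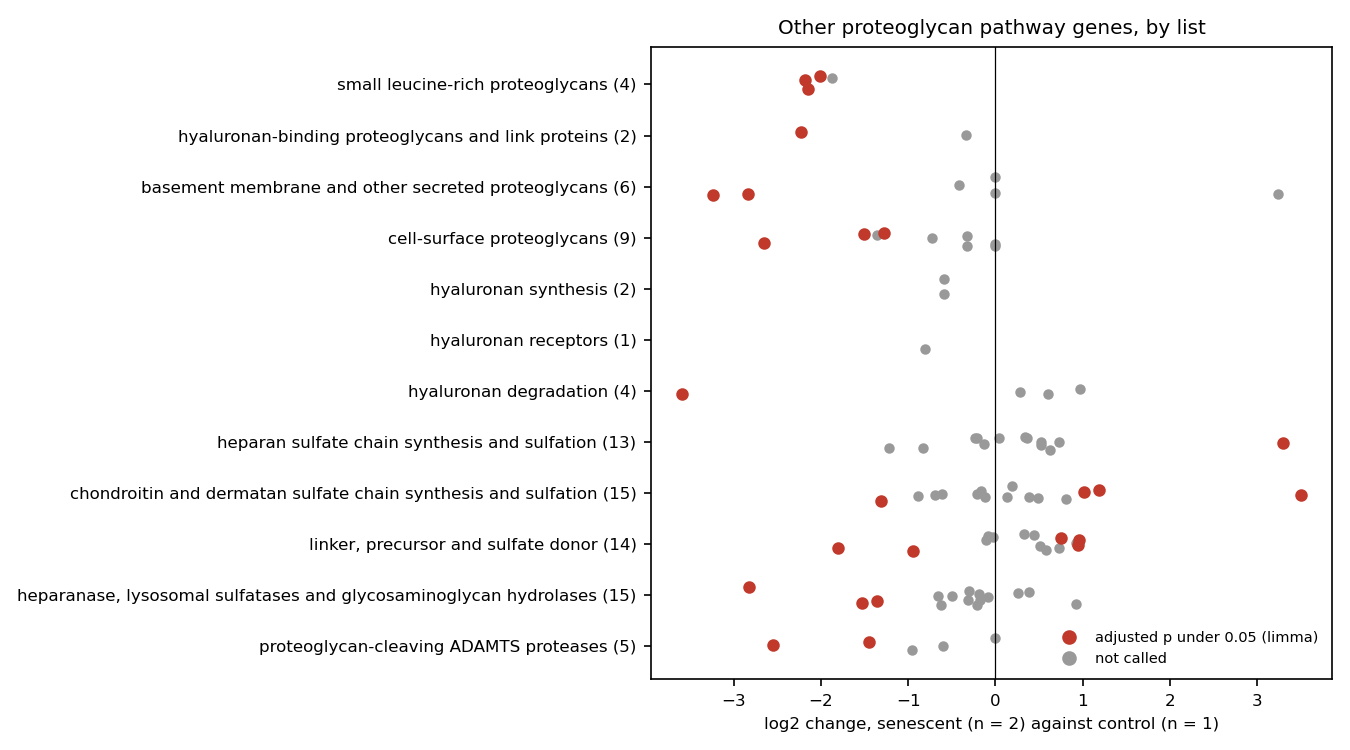
Log2 change between senescent and control libraries of the 90 other pathway genes tested, 1 point per gene, by list (number tested in brackets), with genes called by limma in red. Called core proteins lie left of 0, while CHST11 and HS3ST3A1, which sulfate the chains, have the largest called rises at 3.50 and 3.29.

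The 7 rises and 3 of the falls were in the lists of chain synthesis and sulfation. Of 15 genes for chondroitin and dermatan sulfate, the chains of decorin, biglycan and versican, 3 rose and 1 fell. CHST11, a chondroitin 4-O-sulfotransferase, rose from 37.3 to 426 ± 68.7 (n = 2; log2 3.50, SE 0.30, limma adjusted p = 0.00403). CHST7 rose by log2 1.19 and DSEL by 1.02, while DSE, a dermatan sulfate epimerase, fell from 1662.6 to 673 ± 52.5 (log2 −1.31, limma adjusted p = 0.0284). Of 13 heparan sulfate genes 1 rose: HS3ST3A1, a 3-O-sulfotransferase, from the floor of 20 to 197 ± 29 (at least 9.8-fold, adjusted p = 0.00904). Among 14 genes for the linker, precursors and sulfate donor 3 rose: XYLT1 (log2 0.95), which adds the first sugar to the core protein, and B4GALT7 (0.75) and B3GAT3 (0.96), which extend and complete the linker. PAPSS2, which makes the sulfate donor PAPS, fell from 13710.8 to 3925 ± 145 (log2 −1.80, SE 0.12, adjusted p = 0.00195), and FAM20B, a kinase of the linker, fell by 0.94.

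Genes that degrade or cleave proteoglycans were lower or not called. Of 15 genes for heparanase, lysosomal sulfatases and hydrolases 3 fell and 0 rose. HPSE, the heparanase, stood at 141.8 in the control and 20 in each senescent replicate, a fall of at least 7.09-fold (limma adjusted p = 0.0286), and GUSB fell from 450.3 to 157 ± 7.5 (adjusted p = 0.0284). Of 5 ADAMTS proteases 2 fell. ADAMTS1, which cleaves versican, went from 14174.3 to 2419 ± 118 (log2 −2.55, SE 0.59, limma adjusted p = 0.0437), and ADAMTS15 went from 54.8 to the floor. ADAMTS15 was at most at 30.2 outside the control, so it passed the filter through the control alone.

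With lncRNA-OIS1 knockdown, 0 of the 90 pathway genes were called against the senescent libraries by limma, and 6 higher and 17 lower passed an unadjusted p under 0.05, beside 1311 and 1494 of all 12481 genes. For BRD7 knockdown 0 were called, with 4 higher and 7 lower at an unadjusted p under 0.05, beside 850 and 885 of all genes. For p53 knockdown 1 was higher and 6 lower, against 2.27% and 1.57% of all genes. CSPG4 (NG2), a cell-surface chondroitin sulfate proteoglycan, rose from 2123 ± 79.2 (n = 2) to 4045.7 (log2 0.93, SE 0.16, adjusted p = 0.0467). IDUA, a lysosomal hydrolase of dermatan and heparan sulfate, fell from 178 ± 6.29 to 31.4 (log2 −2.50, SE 0.31, adjusted p = 0.0467). Chain-building genes made up the other falls: CHPF2 (log2 −1.36), DSEL (−1.37), B3GAT3 (−1.22), B4GALT7 (−0.80) and NDST1 (−0.54). B3GAT3, B4GALT7 and DSEL were also called higher in the senescent libraries than in the control; both contrasts use those libraries. All 7 calls were close to the threshold, with adjusted p between 0.0467 and 0.0495, and 0 of the 7 were called when either senescent replicate or any of lncRNA-OIS1 replicates 1 to 3 was left out or no variance trend was used, whereas 23 genes were called without replicate 4.

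For each of the 8 genes the 3 most similar profiles over the 9 libraries were found by Pearson r of log2 values, as a description that rests largely on the control or on lncRNA-OIS1 replicate 4. DCN was most like CCDC80 (r = 0.989), PXDC1 and PRSS12. CCDC80, which encodes a matrix protein, stood at 4485.3 in the control and at 292 to 601.7 in the 8 RAS libraries, with replicate 4 the highest of these as for DCN. BGN was most like CUL9, ATP10D and THBS1 (r = 0.974 to 0.977), and LUM was most like TLE4, CDC14B and TTC7A (0.974 to 0.979). THBS1, the matrix glycoprotein thrombospondin 1, had 211606.6 in the control and 20939.8 to 52307.1 in the RAS libraries, with replicate 1 of lncRNA-OIS1 knockdown the highest of these, as for BGN. Among the profiles most like HAS2 were MRPL15 (0.985) and HOMER3 (0.981), and CD44 was most like TMEM131, PMAIP1 and GTF3C6 (0.983 to 0.992). VCAN was most like PRSS3, CXorf57 and PAIP2B (0.993 to 0.995), all at or near the floor outside replicate 4 and p53 knockdown. SULF1 matched AARD, ADM2 and ANO3 at r = 1, since any gene at the floor outside the control has this profile. SULF2 was most like MYG1-AS1, PPP1R37 and CD160 (0.92 to 0.947).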

How the data were processed

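RNA-seq values of 9 libraries in 5 groups were analysed from 1 deposited table, a normalised signal per gene and library. Per the submitters' processing notes the authors used TopHat2, HTSeq and hg19; versions, roles, annotation and strand setting are not stated in these sources. The same sorted values and total (14916466.5) in every column, and a lowest value of 20, are what quantile normalisation and a floor set by the authors give. Depth and counting error are therefore unknown. Groups came from the labels.

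Log2 values, without a pseudocount, were fitted with limma 3.58.1 in R 4.3.3 for 12481 of 13745 genes whose highest value was at least 40. All libraries entered 1 fit of 5 groups (4 residual degrees of freedom), with variances moderated on a trend and Benjamini-Hochberg adjustment over all genes tested. The residual spread is that between different lncRNA-OIS1 hairpins and between 2 non-targeting shRNAs. Every SE and p rests on it, not on repeats of 1 condition. A group of 1 library was taken to vary as much as those with replicates. Of 1051 rows without a usable symbol, 849 got one from a gene name table. The 8 genes, the 13 lists and the tests were chosen with earlier results of these data known. Named genes were the 8, up to 2 called genes per list and direction with the largest change, the 3 most similar profiles per gene, and adjacent genes; others were named after their values were seen. Some values that these rules cover are not reported here. Alternatives were pseudocounts, filters, scaling, no variance trend, only the groups compared, a replicate block and leaving out each replicate.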

Additional observations from a re-analysis of the deposited data

Results flagged for a closer look

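Within the 4 lncRNA-OIS1 knockdown libraries, 5 of 31 genes examined held a library whose gap to the nearest other exceeded the 95% limit of Dixon's test for 4 values on the log2 scale, a limit that chance passes in about 1 of 20 such groups. In replicate 4 these were VCAN at 2135, HAS2 at 4054.7, CD44 at 26190.7 and ADAMTS15 at 30.2, the last close to the floor of 20. In replicate 3 it was SPOCK1 at 161.4. VCAN, HAS2 and ADAMTS15 were highest and CD44 lowest in replicate 4. VCAN, HAS2 and CD44 were chosen by these same values, so the chance rate does not apply to them, and for ADAMTS15 the other 3 libraries were at the floor.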

How the results depend on the processing

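Depth is unknown, and the floor of 20 hides differences among low values, which bears on SULF1, SULF2 and VCAN most. Log2 differences of the 8 genes kept their sign in all alternatives run except 5. BGN turned to 0.061 and 0.027 for lncRNA-OIS1 knockdown minus senescent without lncRNA-OIS1 replicate 3 or 4 (−0.60 to 0.061 with a replicate left out). Without senescent replicate 2 it turned to −0.011 for BRD7 knockdown minus senescent (−0.011 to 0.25), and LUM to 0.093 for p53 knockdown minus senescent (−0.25 to 0.093). Replicates 1 and 2 of the senescent and lncRNA-OIS1 groups share only a number: their deviations had r of −0.071 and −0.099 across genes. With a replicate block on those 4 libraries BGN turned to 0.45, and the block called 0 pathway genes and 0 of the 8 genes, as without it.

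Counts of called genes moved most with the libraries that set the spread. Between senescent and control, 25 of the 90 pathway genes were called, 52 with only the groups compared, and 5 to 31 with a replicate left out. For the 8 genes the count was 4, and 2 to 5 with a replicate left out. For p53 knockdown, 7 pathway genes became 0 without a variance trend, 46 with only the groups compared and 0 to 23 with a replicate left out. Of the 8 genes, 3 were then called with only the groups compared and 0 to 2 with a replicate left out (HAS2 and VCAN without lncRNA-OIS1 replicate 4, where 2146 of all genes were called). For BRD7 knockdown 2 pathway genes were called with only the groups compared. Over all genes, 1878 calls between senescent and control became 124 to 3704 with a replicate left out and 4998 with only the groups compared, and 479 calls for p53 knockdown became 0 to 2146, 3428 with only the groups compared and 2 without a variance trend. For lncRNA-OIS1 knockdown 0 calls became 57 without a filter and 164 without replicate 4, and for BRD7 knockdown 1 became 30 without a filter, 81 with only the groups compared and 8 without replicate 4. Of the 20 other named genes between senescent and control, 5 (CHST11, PAPSS2, SPOCK1, FMOD and HAPLN3) were called in every alternative that tested them, and 0 of 7 were for p53 knockdown. FMOD and HAPLN3 passed the filter through the control alone and were at or near the floor elsewhere. Their SEs thus rest largely on the variance that limma assigns. What caused these changes in the counts was not tested.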

Other observations

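Of 12481 genes tested, 133 were above the floor in lncRNA-OIS1 replicate 4 alone, 71 in the control alone and at most 3 in any other single library. The 133 include 4 of the 90 pathway genes, which passed the filter only through that library. SRGN, the proteoglycan serglycin of secretory granules, stood at 900.9 there and at 20 in the other 8 libraries. GPC4 and GPC6, glypicans attached to the cell surface, stood at 96.2 and 40.7 there and at 20 elsewhere. ADAMTS4, a protease that cleaves versican and aggrecan, stood at 434.4 in replicate 4 and at 20 to 60.9 elsewhere, and ADAMTS9 at 53 against 20. In the same library the summed fibroblast markers were 146700, within the range of the other RAS libraries, with VIM at 91003.3. The summed epithelial and leukocyte markers were the lowest of the 9 at 760.7 and 45.1. The epithelial sum was low through KRT18 at 486, while KRT8 at 274.7 was above both senescent libraries (255 and 252.9). The leukocyte sum held CD14 at 25.1 and PTPRC at the floor. Whether other cells were present was not tested. SRGN, GPC4, GPC6, ADAMTS4 and ADAMTS9 were named after their values were seen.

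ESM1, or endocan, a secreted dermatan sulfate proteoglycan, was, like HAS2, at the floor in the control. It was at 20 in the control, at 169.2 and 210.8 in senescent replicates 1 and 2, and at 342.1, 257.3, 1273.9 and 1400.4 with lncRNA-OIS1 hairpins. It had 716.4 with p53 knockdown and 486.3 with BRD7 knockdown, so all 6 knockdown libraries lay above both senescent libraries. Limma called it in none of the comparisons with adjustment over all genes (adjusted p between 0.112 and 0.688). Among the 90 pathway genes 14 had all 6 knockdown libraries above both senescent libraries and 25 had all below, against 14.7% and 18.6% of all genes tested.

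ADAMTS5, the other main versican- and aggrecan-cleaving protease, had 932.6 in the control, 502 and 457.6 in senescent replicates 1 and 2, and 28.6 with p53 knockdown, the lowest of the 9 (limma adjusted p = 0.0647 against senescent). With lncRNA-OIS1 hairpins it had 118.8, 93.6, 285.2 and 56.6, and with BRD7 knockdown 280.4. All 6 knockdown libraries were thus below both senescent libraries, as they were for 18.6% of all genes tested. ADAMTS5 was named after its values were seen.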
